A study of Homo sapiens with 6 samples.

Results

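The pre-B cell receptor is the signalling complex that a B-lineage precursor carries before it has a rearranged light chain. The 9 genes described here encode its signalling chains (CD79A, CD79B), its surrogate light chain (VPREB1, IGLL1) with the related VPREB3, the kinases SYK and BTK, the adaptor BLNK and the inhibitory co-receptor CD22. They were taken by name from the 26485 entries of a table of RNA counts. RNA came from REH, an established line of human B-precursor acute lymphoblastic leukemia cells. It was collected after 24 h with the solvent DMSO or with ML141, which inhibits the GTPase CDC42, at 25 µM. Each group had 3 libraries, which the series describes as independent experiments. Whether these were separate cultures is not stated beyond that, so p-values measure the spread between these libraries. All libraries come from 1 cell line, and the controls received only the solvent.

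In a normal pre-B cell the surrogate light chain, made of the VPREB1 and IGLL1 proteins, pairs with an immunoglobulin heavy chain, and the CD79A-CD79B pair carries the signal into the cell. Tyrosine motifs in the tails of CD79A and CD79B are phosphorylated by SRC-family kinases such as LYN and then bind SYK. SYK phosphorylates BLNK, which brings BTK and PLCG2 together and starts calcium and lipid signalling, while CD22 recruits the phosphatase PTPN6 and dampens it. Some of these genes, CD79A and IGLL1 among them, are switched on by the B-lineage factors EBF1, PAX5 and the E proteins.

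Total counts were 8284299 to 12308039 per library. At an adjusted p of 0.05, 54.4% of 11454 genes differed between the groups, so a change by itself was common, and the log2 fold changes over all of them had quartiles of -0.38 and 0.40. Of the changed genes 49.1% were higher, against 59.5% with upper-quartile factors and 66.1% with library totals, which raised the median over all genes by 0.10 and 0.17 on the log2 scale. The libraries carried the RNA of B precursors: the summed level of 10 marker genes of that stage was 6833 to 7582 CPM (the usual depth-normalised read count, with TMM-scaled library sizes) in DMSO and 8103 to 8657 CPM in ML141, although CD34 had 3 counts or fewer in each library. DNTT and RAG1 were the highest of them, at 2407 and 1768 CPM in DMSO. Of 9 tested markers of that stage 6 rose, 1 fell and 2 did not pass, beside 26.7% higher and 27.7% lower over all genes. The marker that fell was CD24, from 900 to 647 CPM (edgeR adjusted p = 0.00102). CD9, 1 of the 6 that rose, was low, at 1.00 CPM in DMSO and 5.57 CPM in ML141. Markers of T cells and NK cells summed to at most 2.41 and 1.89 CPM in any library, and 4 of 9 and 3 of 6 had no count at all, CD3D and KLRD1 among them. Of 9 myeloid markers ELANE and S100A8 had no count, while MPO gave most of a sum of 49.1 to 50.3 CPM in DMSO and 32.8 to 36.4 CPM in ML141. The 8 markers of mature B and plasma cells summed to 5.80 to 8.77 CPM in DMSO and 3.43 to 5.67 CPM in ML141, with CR2 and FCER2 at 0. Only PRDM1 and SDC1 of these were tested, and they went opposite ways: PRDM1, a plasma cell transcription factor, rose from 0.353 to 2.25 CPM (edgeR adjusted p = 8.09e-05), and SDC1, the surface marker CD138, fell from 6.61 to 1.84 CPM (edgeR adjusted p = 9.75e-04). The 6 erythroid markers summed to at most 0.193 CPM, with HBA1, HBA2 and HBB at 0. RNA was taken from whole cultures, so a higher level per cell and more cells with the transcript cannot be told apart.

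Promoter sequences from RefSeq (GRCh38.p14) were found for 8 of the 9 genes. Those of CD79A, the member that changed most, and of the surrogate light chain pair IGLL1 and VPREB1, which differed most in level, are shown 5′ to 3′. Each run starts 250 bases before the RefSeq start and stops where the first transcript of GENCODE release 29 begins, and capitals mark every match to the motifs searched. They lie at chr19:41877029-41877119 (plus strand), chr22:23580309-23580540 (minus strand) and chr22:22244536-22244674 (plus strand).
CD79A: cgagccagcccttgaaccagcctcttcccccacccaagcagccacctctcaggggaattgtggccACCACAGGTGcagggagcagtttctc
IGLL1: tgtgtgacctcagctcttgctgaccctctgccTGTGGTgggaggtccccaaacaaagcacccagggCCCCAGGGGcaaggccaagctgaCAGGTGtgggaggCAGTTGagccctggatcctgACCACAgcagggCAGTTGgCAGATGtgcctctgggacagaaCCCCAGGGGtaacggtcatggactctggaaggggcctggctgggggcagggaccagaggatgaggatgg
VPREB1: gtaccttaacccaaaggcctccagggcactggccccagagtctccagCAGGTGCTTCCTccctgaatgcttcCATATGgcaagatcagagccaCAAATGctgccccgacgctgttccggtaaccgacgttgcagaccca

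Motifs were searched on both strands in the whole 250 bases before the start. The E-box CANNTG, bound by E proteins and other helix-loop-helix factors, occurred in 7 of 8 members and in 61.8% of 34788 promoters of that length. AGGAAG, an ETS core, also occurred in 7 of 8 members, against 28.7% of promoters. SYK has 3 start sites and BTK 2, and a match at any of them was counted, which gives these genes more letters to match than 1 promoter. The EBF1 core CCCNNGGG occurred in IGLL1, VPREB1 and BTK, or 3 of 8 members, against 17.0%. In IGLL1 it lies in 2 overlapping pairs, the first starting 184 and the second 87 bases before the start. In VPREB1 it starts 29 bases before the start, past the end of the run shown. The RUNX core TGTGGT occurred in CD79A, IGLL1 and VPREB3, against 11% of promoters, and in CD79A it overlaps the E-box CAGGTG. The octamer ATGCAAAT occurred in VPREB3, 47 bases before its start, against 1.62% of promoters, and TATAAA in none of the 8 members, against 10.8%. A match is a description of letters and not a measured binding site.

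Of the 9 genes 8 had enough counts to be tested, and 4 of them, CD79A, CD79B, IGLL1 and BLNK, rose with ML141 by edgeR's quasi-likelihood test, whereas 26.7% of all genes tested rose. None of the 8 fell, against 27.7% of all genes; the count was also 0 at an unadjusted p under 0.05, and 0 by DESeq2 and by limma-voom. The median log2 fold change of the 8 was 0.26, beside 0.02 over all genes tested. In 5 of the 8 no DMSO library fell among the ML141 libraries, against 61.2% of all genes: 4 lay higher with ML141 (30.5% of all genes) and BTK lay lower (30.7%). The set is small, so the shares are a description of these genes. Among the ML141 libraries replicate 1 had the lowest level in 6 of the 8 genes. It also differed most from the others of its group over all genes (chi-square per degree of freedom of 18.4 and 9.32, against 2.90 to 6.92 for other pairs). DMSO replicate 1 differed from the others of its group by 4.30 and 5.34, and those differed from each other by 2.90. In the sample descriptions replicate 1 of both groups carries the tag CV and the other libraries a tag with Reh. What the tags mark is not stated.

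**Figure D1:**
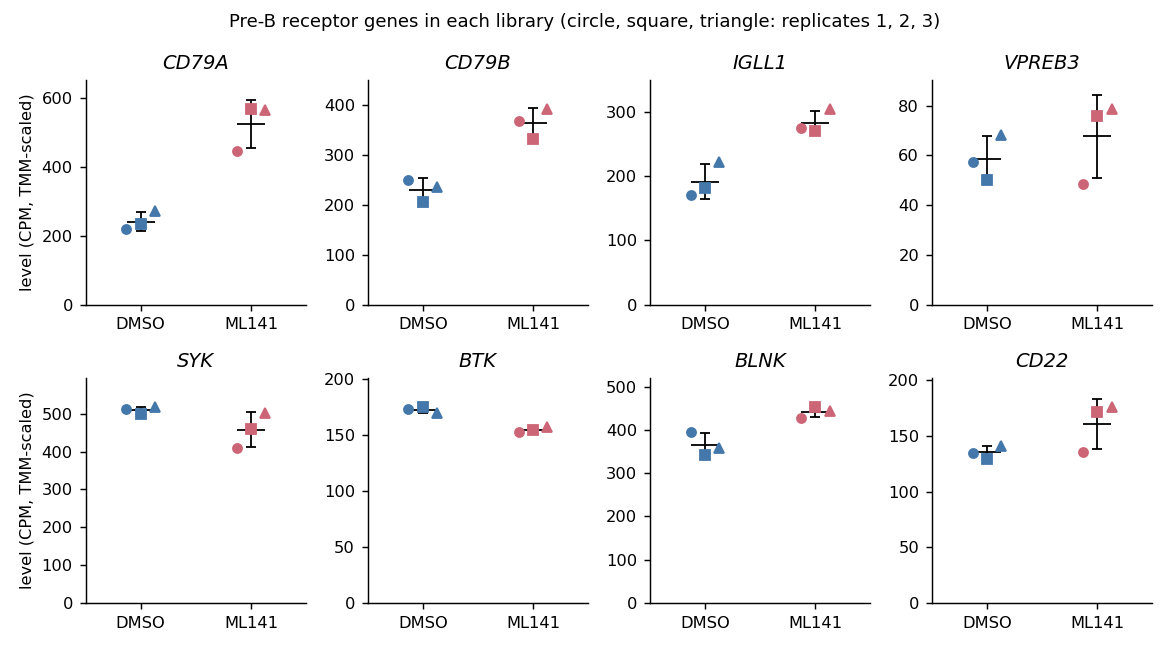
TMM-scaled CPM of the 8 tested genes in each library, with a panel per gene and an axis from 0; symbols are replicates 1, 2 and 3, the horizontal line is the mean and the bar 1 SD of 3 libraries. CD79A, CD79B, IGLL1 and BLNK lie higher in each ML141 library than in any DMSO library, and BTK lies lower in each.

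The signalling chains had the largest changes of the set. CD79A (chromosome 19, 41877120 to 41881372, plus strand, 5 exon blocks), which pairs with CD79B and holds a tyrosine motif in its tail, stood at 218, 233 and 271 CPM in DMSO replicates 1, 2 and 3 and at 445, 567 and 563 CPM in ML141. Every ML141 library was above every DMSO library. It rose 2.18-fold, or by 1.13 on the log2 scale (SE 0.112, edgeR adjusted p = 6.85e-06). CD79B (chromosome 17, 63928740 to 63932354, minus strand), the partner chain, had 250, 205 and 237 CPM in DMSO and 368, 331 and 392 CPM in ML141, again with no overlap. It rose 1.58-fold, by 0.66 on the log2 scale (SE 0.0953, edgeR adjusted p = 1.23e-04). AC127029.3, a gene on the same strand that is not analysed here, covers 22.6% of its exon bases, so reads there could belong to either gene.

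CD79A and CD79B act as a pair, and the ratio of their counts within a library does not depend on how libraries are scaled. That ratio was 0.869, 1.14 and 1.14 in DMSO and 1.21, 1.71 and 1.44 in ML141. The ratio was higher in all ML141 libraries than in any DMSO library, by 0.46 on the log2 scale, or 1.38-fold. By a 2-sided exact permutation test p was 0.1, the smallest that 3 against 3 allows, and 0.2 adjusted over the 2 ratios that could be computed. The size of this shift was 0.33 without DMSO replicate 1 and 0.34 without ML141 replicate 2.

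Of the surrogate light chain genes, IGLL1 exceeded VPREB1 in both groups by far more than IGLL1 differed between the groups. IGLL1 (chromosome 22, 23573125 to 23580308, minus strand), which encodes the constant-like lambda 5 part, had 171, 182 and 222 CPM in DMSO and 275, 271 and 305 CPM in ML141. The groups did not overlap, and it rose 1.48-fold, by 0.57 on the log2 scale (SE 0.102, edgeR adjusted p = 5.99e-04). IGLL1 belongs to a family with IGLL5 and IGLL3P of related sequence, so reads could be assigned to the wrong copy, which was not tested.

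VPREB1 (chromosome 22, 22244675 to 22245515, plus strand, 2 exon blocks), which encodes the variable-like part, had no count in 5 libraries and 1 count in ML141 replicate 3. It was therefore not tested. A count of 0 over the DMSO libraries together allows a level of up to 0.108 CPM (3 counts, counting error only). Per kb of exon, IGLL1 was at least 1485-fold higher than VPREB1 in DMSO by that limit. The planned ratios of VPREB1 to IGLL1 and of VPREB3 to VPREB1 could not be computed.

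The genes beside VPREB1 were looked at after its counts were seen, first 3 and then 6 on each side. Its nearest 6 protein-coding neighbours with an entry on the side of higher coordinates were ZNF280B, ZNF280A, PRAME, GGTLC2, IGLL5 and RSPH14. The first 5 had no count in any library, and RSPH14, 814 kb away, had 1 count in ML141 replicate 1. Of all 26485 entries 16703 had a count in at least 1 library, so an entry without counts was common. All 6 nearest on the side of lower coordinates had counts in every library. The nearest of them, TOP3B, a topoisomerase 262 kb away, had 143 to 365 counts. IGLL1 itself lies 1328 kb from VPREB1 on the side of higher coordinates, and VPREB3 lies another 172 kb on. The stretch between holds immunoglobulin lambda light chain genes, though not necessarily all of them. Immunoglobulin gene segments were not among the protein-coding genes looked at on either side. What lies behind the missing counts was not tested.

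VPREB3 (chromosome 22, 23752743 to 23754468, minus strand), a VPREB-like protein that binds newly made heavy chains, had 57.3, 49.95 and 68.3 CPM in DMSO and 48.4, 75.9 and 78.6 CPM in ML141. ML141 replicate 1 was the lowest of the 6 libraries, and the other ML141 libraries were the highest. Its difference was 0.21 on the log2 scale (SE 0.171, 95% interval -0.16 to 0.58, edgeR adjusted p = 0.318). Without ML141 replicate 1 it was 0.40 and past the test (edgeR adjusted p = 0.00622), so that library decides the call.

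The kinases did not pass the test. SYK (chromosome 9, 90801787 to 90898549, plus strand), the kinase that docks on the phosphorylated receptor tails, had 513, 499 and 517 CPM in DMSO and 410, 459 and 503 CPM in ML141. The groups overlapped, with -0.16 on the log2 scale (SE 0.0859, 95% interval -0.34 to 0.03, edgeR adjusted p = 0.145). BTK (chromosome X, 101349447 to 101390796, minus strand), a TEC-family kinase that activates PLCG2, had 173, 175 and 170 CPM in DMSO and 153, 154 and 157 CPM in ML141. All ML141 libraries were below all DMSO libraries, and the difference was -0.16 on the log2 scale (SE 0.0726, 95% interval -0.32 to 0.00 after rounding, edgeR adjusted p = 0.0858). With library totals in place of TMM factors both kinases were at 0.02, and relative to the median of all genes both stayed at -0.17.

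BTK and SYK kept nearly the same proportion in both groups. The BTK count was 0.338, 0.3499 and 0.328 of the SYK count in DMSO and 0.373, 0.336 and 0.313 of it in ML141, and the groups overlapped. Their mean log2 ratios differed by 0.0032 (2-sided exact permutation p = 1.0, and 1.0 adjusted over the 2 ratios), and by -0.06 without ML141 replicate 1.

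BLNK (chromosome 10, 96191702 to 96271587, minus strand), the adaptor that SYK phosphorylates, had 395, 341 and 358 CPM in DMSO and 429, 452 and 444 CPM in ML141. The groups did not overlap, though DMSO replicate 1 came near to ML141 replicate 1. It rose 1.21-fold, by 0.28 on the log2 scale (SE 0.0797, edgeR adjusted p = 0.0114), and the call was lost without DMSO replicate 2 (edgeR adjusted p = 0.0798).

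CD22 (chromosome 19, 35319261 to 35347355, plus strand), a sialic acid-binding co-receptor that restrains signalling, had 135, 130 and 141 CPM in DMSO and 135, 172 and 176 CPM in ML141. ML141 replicate 1 lay within the DMSO range and the other ML141 libraries above it. The difference was 0.25 on the log2 scale (SE 0.102, 95% interval 0.03 to 0.47), just outside the threshold (edgeR adjusted p = 0.0558). With the replicate number as a block it passed (edgeR adjusted p = 0.0183), as it did without ML141 replicate 1, at 0.36 (edgeR adjusted p = 8.76e-04), and with upper-quartile factors (edgeR adjusted p = 0.0210) or library totals (edgeR adjusted p = 0.00684). No low-count filter (edgeR adjusted p = 0.0231) and a stricter one (edgeR adjusted p = 0.0452) also brought it past the test. In the other 9 of the 15 alternatives CD22 did not pass. Among these were the DESeq2 Wald test (adjusted p = 0.0584) and limma-voom (adjusted p = 0.0685). Without ML141 replicate 3 its difference was 0.18 (edgeR adjusted p = 0.225). In the authors' deposited table CD22 has a log2 fold change of 0.243 and an adjusted p of 0.0710.

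**Figure D2:**
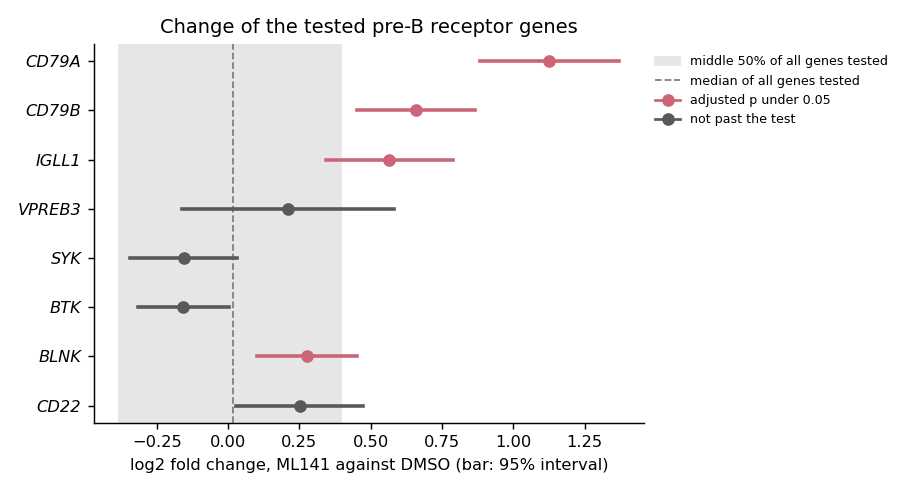
Log2 fold change of ML141 against DMSO for the 8 tested genes, with 95% intervals from the edgeR fit; red marks an adjusted p under 0.05, the grey band the quartiles of all genes tested (-0.38 to 0.40) and the dashed line their median (0.02). CD79A, CD79B and IGLL1 lie above the band, and the other 5 genes lie within it.

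Compared within replicate numbers, CD79A was higher by 1.03, 1.28 and 1.06 on the log2 scale in numbers 1, 2 and 3, and CD79B by 0.56, 0.69 and 0.73. IGLL1 was higher by 0.69, 0.58 and 0.46. All 3 numbers moved the same way for these genes. VPREB3 was at -0.25, 0.60 and 0.20, and CD22 at 0.01, 0.41 and 0.31, with number 1 apart from the others in both. SYK was at -0.32, -0.12 and -0.04, while BTK was at -0.18, -0.18 and -0.11. BLNK was higher in all, by 0.12, 0.41 and 0.31.

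**Figure D3:**
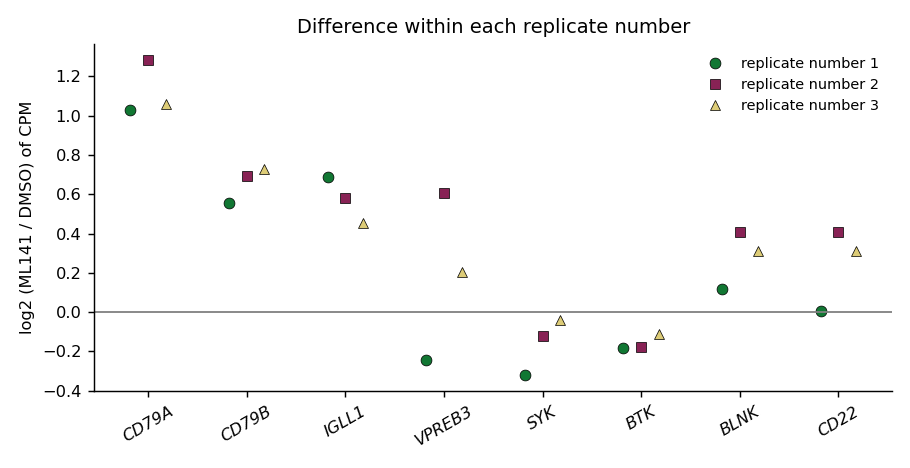
Log2 ratio of CPM in ML141 to CPM in DMSO for libraries with the same replicate number, by gene; each symbol is 1 replicate number and the line marks no difference. CD79A lies between 1.03 and 1.28, whereas VPREB3 runs from -0.25 to 0.60.

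Levels of different genes were compared as CPM per kb of exon. In DMSO the order was IGLL1 at 213 ± 29.96, CD79A at 191 ± 21.7, CD79B at 181 ± 18.3 and BLNK at 177 ± 13.4 CPM per kb (SD, n = 3), and neighbours in that order overlapped between libraries. SYK at 98.4 ± 1.80 and VPREB3 at 95.9 ± 15.1 CPM per kb followed, lower than BLNK in every library and overlapping each other. BTK at 55.8 ± 0.836 and CD22 at 41.1 ± 1.81 CPM per kb were lower again and did not overlap each other. In ML141 CD79A led with 417 ± 55.3 CPM per kb, above IGLL1 at 315 ± 20.4 in every library. CD79B at 286 ± 24.2 overlapped IGLL1, and BLNK at 214 ± 5.85 CPM per kb lay below CD79B in every library. VPREB3 at 111 ± 27.4 and SYK at 88.4 ± 8.93 CPM per kb overlapped, as did BTK at 50.005 ± 0.726 and CD22 at 48.9 ± 6.74. VPREB1 was last in both groups.

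**Figure D4:**
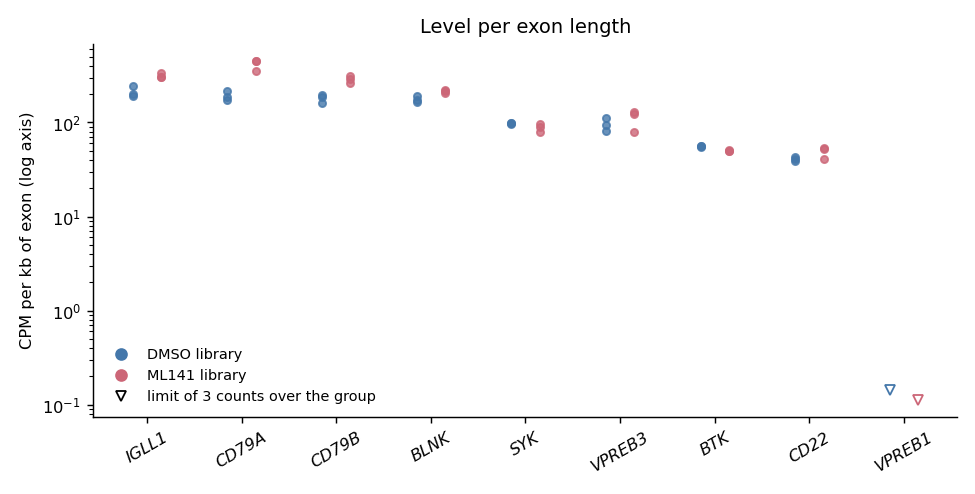
CPM per kb of exon on a log axis for the 9 genes, ordered by their DMSO mean; points are libraries, and open triangles for VPREB1 mark the level of 3 counts over the group (0.143 in DMSO and 0.111 in ML141). The other 8 genes lie between 39.4 and 451 CPM per kb.

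The other genes of the pathway were counted from 6 lists of 115 genes. Of these 107 had an entry and 86 were tested, and 44 rose and 13 fell, that is 51.2% and 15.1%, with a median log2 fold change of 0.27, against 26.7% and 27.7% and a median of 0.02 over all genes. With library totals 58 were higher and 10 lower, beside 39.2% higher and 20.1% lower over all genes at that setting. The lists were described by these counts only and were not tested as sets. Of 11 immunoglobulin chain genes 8, the heavy chain gene IGHM among them, were not analysed here. The other 3 were IGLL5, IGLL3P and JCHAIN, with at most 2 counts in any library.

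Of 9 tested kinases that act next to the receptor 4 rose and 2 fell, with a median of 0.21. Over all genes tested 26.7% rose and 27.7% fell. FYN, a SRC-family kinase, rose 2.06-fold from 77.6 ± 5.40 to 160.0 ± 0.150 CPM (SD, n = 3). LYN, the SRC-family kinase best known in B cells, fell by 0.71 on the log2 scale (SE 0.119, edgeR adjusted p = 3.46e-04), from 35.5, 41.5 and 37.1 to 20.4, 24.1 and 25.0 CPM. PTK2B, a focal adhesion kinase relative, fell by 0.34 (SE 0.103), a call lost with upper-quartile factors (edgeR adjusted p = 0.109), with library totals (0.232) and without DMSO replicate 3 (0.0683).

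Among 22 tested co-receptors, adaptors and exchange factors 11 rose and 3 fell, beside 26.7% and 27.7% of all genes, with a median of 0.23. With library totals 17 rose and 2 fell, beside 39.2% and 20.1% of all genes. GAB2, a docking protein for PI3-kinase, rose 2.54-fold from 93.1 ± 2.71 to 236 ± 12.1 CPM, and LAT2, an adaptor of B and myeloid cells, rose 1.69-fold from 349 ± 6.04 CPM. VAV3, a GTPase exchange factor, and CD38, a surface ectoenzyme, both fell, VAV3 by 0.44 on the log2 scale (SE 0.0812) and CD38 by 0.45 (SE 0.0951).

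Of 21 tested genes of the lipid, calcium and NF-kB steps 10 rose and 2 fell, with a median of 0.24. The shares over all genes were 26.7% and 27.7%. PLCG2, the phospholipase that BTK activates, had 242, 218 and 223 CPM in DMSO and 377, 372 and 361 CPM in ML141, a 1.62-fold rise (edgeR adjusted p = 1.30e-05). STIM1, the calcium sensor of the endoplasmic reticulum, rose 2.41-fold from 7.74 ± 1.07 CPM. ITPR3, a calcium channel, fell by 0.86 (SE 0.192) on the log2 scale, and PRKCD, a protein kinase C, fell by 0.38 (SE 0.146, edgeR adjusted p = 0.0452). The PRKCD call was lost without any 1 library other than ML141 replicate 2, with the DESeq2 Wald test (adjusted p = 0.0767), with upper-quartile factors (edgeR adjusted p = 0.156), with library totals (0.274) and with no (0.0695) or a stricter (0.0521) low-count filter. With the replicate number as a block 5 genes of this list were lower, beside 30.9% of all genes at that setting.

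Genes listed as inhibitors of receptor signalling, PTPRC among them, went both ways, and whether each inhibits it in these cells was not tested. Of 13 tested genes 5 rose and 2 fell (26.7% and 27.7% of all genes), with a median of 0.27. With library totals 9 rose and 2 fell (39.2% and 20.1% of all genes). CBLB, a ubiquitin ligase, rose 2.54-fold from 17.5 ± 0.937 to 44.5 ± 4.34 CPM, and PAG1, a membrane adaptor that recruits the kinase CSK, rose 1.83-fold from 195 ± 14.1 CPM. PTPN6, the phosphatase SHP-1 that CD22 recruits, had 51.3, 65.1 and 63.6 CPM in DMSO and 25.0, 35.1 and 36.3 CPM in ML141, and fell by 0.90 on the log2 scale (SE 0.146, edgeR adjusted p = 2.79e-04). PTPN22, a phosphatase of SRC and SYK family kinases, fell by 1.12 (SE 0.261) from 2.80 ± 0.256 CPM.

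Of 21 tested genes listed as transcription factors of pre-B receptor genes 14 rose and 4 fell, with a median of 0.43. The shares over all genes were 26.7% and 27.7%. Whether each factor acts on these genes in these cells was not tested. EBF1, whose core motif is in the IGLL1 promoter shown above, rose from 427 to 539 CPM, by 0.34 on the log2 scale (edgeR adjusted p = 0.00302), and TCF3, which encodes the E proteins E12 and E47, rose by 0.47 (edgeR adjusted p = 0.00118). Both were chosen for their motifs after their values were seen. POU2AF1, an octamer coactivator, and RUNX1 rose 1.65-fold and 1.64-fold. Counts were per gene symbol, so different forms of the RUNX1 transcript were not told apart. IKZF1, which encodes Ikaros, fell by 0.88 (SE 0.0750) and POU2F1, which binds the octamer, by 0.70 (SE 0.0900) on the log2 scale. These values are set beside the motifs as levels only.

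**Figure D5:**
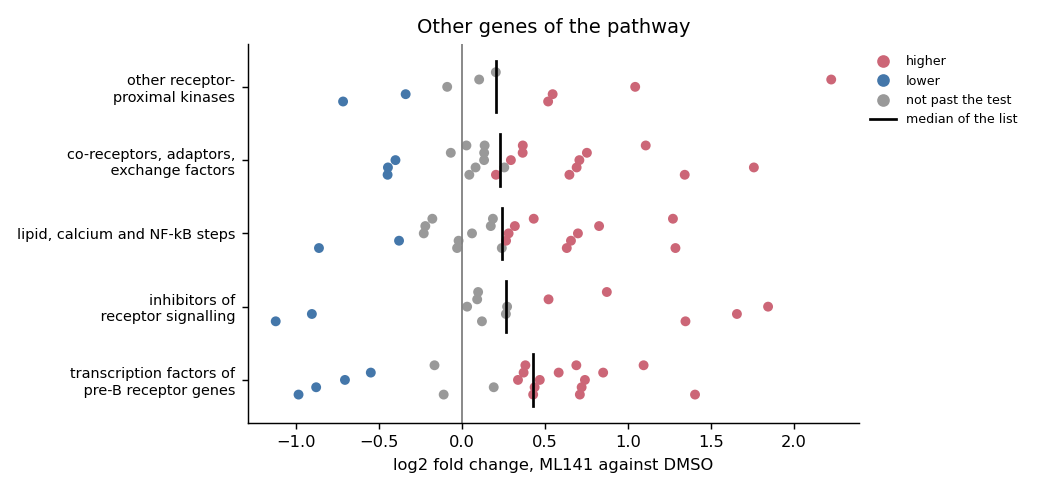
Log2 fold change of each tested gene of the 5 pathway lists that had tested genes; red is higher, blue lower and grey not past an adjusted p of 0.05, and the black line is the median of the list. The medians run from 0.21 to 0.43, and each list has genes that fell.

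The genes whose pattern over the 6 libraries was most like that of CD79A, by Pearson's r of log2 CPM, were TRPM4 (r = 0.9992), ESR1 (r = 0.9991) and SLC6A19 (r = 0.998). These are the 3 highest of 11454 genes, the 6 points fall into 2 groups, and the values are a description.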

How the data were processed

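RNA was measured in 6 libraries, 3 per group, mapped to columns through the sample titles and descriptions. Illumina TruSeq RNA v2 libraries were made from column-purified RNA, per the labels' protocols; that kit does not mark the strand. The submitters' processing notes name featureCounts, Bowtie2, DESeq2, Trimmomatic, Picard, bcl2fastq 2.19 and build hg38, without roles or settings. The deposited file holds whole-number counts per gene symbol. It also holds scores, which the authors made from counts by dividing by size factors of 0.735 to 1.29 and rounding, and the authors' deposited log2 fold changes and adjusted p-values, used only where named.

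Genes kept by filterByExpr (minimum count 10, minimum total 15; 99.9% of counts) were tested with edgeR 4.0.16 (quasi-likelihood, TMM factors, R 4.3.3), 2-sided, over the 6 libraries with no covariate, with Benjamini-Hochberg adjustment over 11454 genes at 0.05. SE is the log2 fold change over the root of F, and intervals are 95%. Lengths and overlaps are exon unions of the GENCODE 29 basic annotation. Replicates differed by more than sampling noise (chi-square per degree of freedom at least 2.90). The titles give both groups replicate numbers 1 to 3, and deviations from group means correlated within each number (r = 0.478, 0.128 and 0.247), each above 0.1. The main fit carries no block, and a fit with the number as a block was run as an alternative (6979 genes changed). DMSO replicate 3 correlated more with ML141 replicate 2 (r = 0.370).

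Members and lists were chosen with earlier results of these data known. Named genes were all members, the 2 genes of smallest p in each direction of each list, and IGHM, LYN, PLCG2 and PTPN6; some genes that the rule names are not reported here. Alternatives were other size factors, filters and tests (limma 3.58.1, DESeq2 1.42.0), a replicate block, a minimum fold of 1.5 and each library left out. The fit was tested on simulated data. Protein sequences were not used here.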

Additional observations from a re-analysis of the deposited data

How the results depend on the processing

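Over the 15 alternatives CD79A stayed past the test, at 1.06 to 1.30 on the log2 scale, and no member was lower and past the test. CD79B and IGLL1 failed only the test against a minimum fold change of 1.5. By that test 1 member (CD79A) was higher, 1811 genes changed in all, and 13 other genes of the pathway were higher and 3 lower. Over all genes 7.1% were higher and 8.71% lower by that test. SYK and BTK turned to 0.0194 and 0.0166 with library totals. Leaving out 1 library gave 3 to 6 members higher, with 3 without DMSO replicate 2 and 6 without ML141 replicate 1. It gave 37 to 47 other pathway genes higher and 11 to 14 lower. Over all genes 20.5% were higher and 23.1% lower without DMSO replicate 2, and 27.5% and 29% without ML141 replicate 1. The log2 ratio of CD79A to CD79B stayed at 0.33 to 0.59, and that of BTK to SYK, 0.0032 with all libraries, ran from -0.0638 to 0.0623, below 0 without DMSO replicate 3 (-0.0192) and without ML141 replicate 1. With the replicate number as a block 5 members were higher, beside 30% of all genes, CD22 (0.24) being the only member whose call changed. No call changed among the other pathway genes named in the text. Paired by number, the log2 ratio of CD79A to CD79B differed by 0.46 (exact sign-flip p = 0.25, the smallest 3 pairs allow). The cause of these differences was not tested. For VPREB1 the count of 0 over the DMSO libraries sets an upper limit of 0.108 CPM, and it does not show that the transcript was absent.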
